A study of Mus musculus with 12 samples.

Results

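Dnah6 encodes dynein axonemal heavy chain 6, a motor subunit of the inner dynein arms of motile cilia and sperm tails. It was examined beside 9 other mouse dynein heavy chains in C2C12 cells, a mouse myoblast line from skeletal muscle, exposed to perfluorooctanesulfonate (PFOS), a persistent perfluorinated surfactant. The 10 genes, Dnah1, Dnah2, Dnah5, Dnah6, Dnah7b, Dnah8, Dnah10, Dnah11, Dync1h1 and Dync2h1, are the rows of the deposited gene count table that carry these names, out of 54532 rows. The question was whether Dnah6 responds to PFOS alone among them. The members were selected on the measured counts of these libraries: Dnah6 was chosen by its change with PFOS, and the others as members of the same family. Its own values are therefore a description and carry no test, whereas the other heavy chains were tested. Of the 10 genes, 4 passed the filter on low counts that kept 16038 of the 54532 rows, namely Dnah2, Dnah6, Dync1h1 and Dync2h1. The other 8 mouse heavy chain genes of the table are given alongside, which makes 18 in all, of which 7 passed.

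There were 4 libraries at each of 0, 2 and 6 µM PFOS, and the labels name no other agent and no genotype change. All dishes were fully confluent C2C12 myoblasts, held for 24 h at their dose, and messenger RNA was sequenced. Each dose comes from the 1 line, and no label says that libraries of a dose were separate cultures, so the p-values reflect the scatter of these libraries, which may be technical scatter. Total gene counts ranged from 30206155 to 50351082 per library. The libraries of 0 µM replicate 1 and of 6 µM replicates 2 and 3 lay farthest from the others of their dose, and results that change without them are named where they occur. All 14 myoblast markers of a list had counts, and their summed level in CPM, read counts scaled by library size, was 4481 to 4911 at 0 µM, 4646 to 4872 at 2 µM and 4776 to 5002 at 6 µM. Most of that sum was Vim, the intermediate filament gene, at 3821 CPM at 0 µM, 3834 CPM at 2 µM and 3989 CPM at 6 µM on average.

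Dynein heavy chains are the ATP-driven motor subunits that walk along microtubules. Axonemal heavy chains sit in the outer and inner arms that bend motile cilia and flagella. Dnah5, Dnah8, Dnah9, Dnah11 and Dnah17 belong to the outer arms, Dnah2 and Dnah10 form the inner arm with a pair of heads, and Dnah1, Dnah3, Dnah6, Dnah7 and Dnah12 are single-headed inner arm chains. Cytoplasmic dynein 1, built on Dync1h1, carries cargo toward microtubule minus ends in almost every cell, and dynein 2, built on Dync2h1, returns intraflagellar transport trains from the ciliary tip. Myoblasts can carry a primary cilium but are not known to build motile ones. In humans, variants of DNAH6 have been linked to defects of cilia and sperm.

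Dnah6 (ENSMUSG00000052861) is listed at chr6:73017606-73221651 on the minus strand, in GRCm38 coordinates. GENCODE release M21 gives it 4 transcripts, and the longest coding one has 77 exons and a coding sequence of 12432 bases, or 4144 codons. Of the 12603 stretches of 50 bases in that transcript, 0.96% also occur in another gene. The antisense gene Gm20560, the gene with the most matches to the shared stretches, had 0 counts in every library. The promoters of Dnah6, of its single-headed relative Dnah7b and of the cytoplasmic chain Dync1h1 are shown because they contrast the gene that was higher with PFOS, a near-silent one that shares its X-box and an abundant one without. Each runs 5′ to 3′ from 250 bases before to 50 after the RefSeq start site on GRCm38.p6, at chr6:73221582-73221881 (minus strand), chr1:46066603-46066902 (plus strand) and chr12:110601145-110601444 (plus strand), and capitals mark matches to the motifs described next.
Dnah6: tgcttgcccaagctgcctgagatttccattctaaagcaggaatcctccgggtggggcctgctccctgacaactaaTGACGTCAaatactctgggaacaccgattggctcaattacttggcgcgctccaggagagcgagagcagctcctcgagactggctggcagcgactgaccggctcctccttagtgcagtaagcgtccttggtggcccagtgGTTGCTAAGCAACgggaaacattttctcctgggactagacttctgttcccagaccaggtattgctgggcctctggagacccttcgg
Dnah7b: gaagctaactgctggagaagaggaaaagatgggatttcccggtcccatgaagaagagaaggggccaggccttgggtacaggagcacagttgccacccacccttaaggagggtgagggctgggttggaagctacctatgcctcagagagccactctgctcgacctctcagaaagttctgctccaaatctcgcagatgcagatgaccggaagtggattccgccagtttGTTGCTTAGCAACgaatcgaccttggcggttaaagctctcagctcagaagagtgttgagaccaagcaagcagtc
Dync1h1: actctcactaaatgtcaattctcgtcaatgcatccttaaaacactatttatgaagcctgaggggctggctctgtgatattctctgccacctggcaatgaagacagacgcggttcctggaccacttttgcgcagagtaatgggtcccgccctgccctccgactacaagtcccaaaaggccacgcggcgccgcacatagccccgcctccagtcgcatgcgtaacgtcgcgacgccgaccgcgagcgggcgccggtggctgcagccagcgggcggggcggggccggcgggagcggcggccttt

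The letters TGACGTCA, the cyclic AMP response element, lay at bases -175 to -168 of the Dnah6 window, counted from the start site. The letters GTTGCTAAGCAAC, an X-box built as an inverted repeat of GTTGC with 3 bases between the arms, a form that RFX factors bind in many ciliary genes, lay at bases -36 to -24. Both strands were searched, and these motifs were picked after reading the Dnah6 window. Among 32851 RefSeq promoter windows of equal length, 588 (1.79%) held TGACGTCA and 74 (0.225%) held such an X-box. Promoters of 16 of the 18 heavy chain genes were matched. An X-box of this form with the letters GTTGCTTAGCAAC was also found in Dnah7a at bases -57 to -45, in Dnah7b at bases -24 to -12 and in Dnah7c at bases -69 to -57. Those 3 genes had few reads or none, and none of them passed the filter. The Dync1h1 window held none of the motifs searched. The direct repeat of AGGTCA with 1 base between, a site of PPAR receptors (0.0396% of windows), the composite site TGATGNAA (3.97%) and the inverted repeat of GTTGC with 4 bases between (0.174%) were in no heavy chain window. Only the windows at RefSeq starts were searched, and some of these starts differ from those of the deposited genes. For Dync2h1 the RefSeq start is base 7177058, against 7184446 in the deposited coordinates. A match describes letters only and says nothing of binding.

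Dnah6 was higher at each PFOS dose. Dnah6 measured 0.765, 1.04, 0.975 and 0.782 CPM in the 0 µM libraries, 2.68, 3.025, 2.30 and 3.54 CPM in the 2 µM libraries and 4.57, 5.305, 6.22 and 5.54 CPM in the 6 µM libraries. Every 2 µM library lay above every 0 µM library, and every 6 µM library lay above every 2 µM library, so no doses overlapped. Dnah6 averaged 0.890 ± 0.138 CPM at 0 µM, 2.89 ± 0.528 CPM at 2 µM and 5.41 ± 0.682 CPM at 6 µM (SD, n = 4). Behind these values stood 24 to 48 Dnah6 reads per library at 0 µM, 96 to 160 at 2 µM and 198 to 269 at 6 µM.

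The fitted log2 fold change of Dnah6 was 1.68 (SE 0.211, 95% interval 1.21 to 2.16) for 2 against 0 µM, or 3.21-fold. For 6 against 0 µM it was 2.59 (SE 0.210, 95% interval 2.11 to 3.06), or 6.01-fold. Between the doses, 6 against 2 µM, it was 0.90 (SE 0.190, 95% interval 0.47 to 1.33), or 1.87-fold. These intervals take no account of the choice of Dnah6 by its change. They describe the scatter of the libraries and serve as no test. Placed among all 16038 tested genes by log2 fold change, highest first, Dnah6 ranked 29th for 2 against 0 µM, 8th for 6 against 0 µM and 215th for 6 against 2 µM. Its level stayed low: 69.3% of tested genes had a higher mean level. In bulk RNA, more cells with the transcript and more transcript per cell cannot be told apart, and likewise fewer cells and less RNA per cell.

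**Figure D1:**
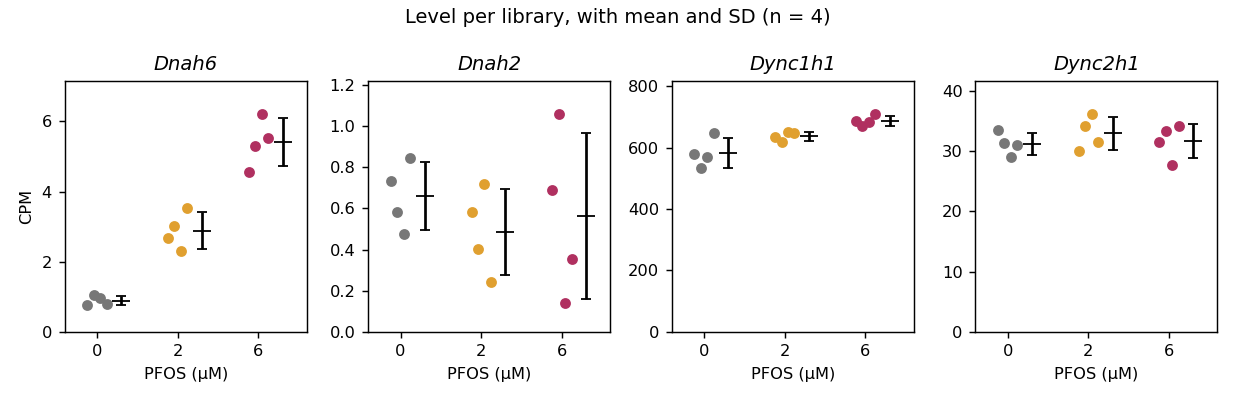
CPM of the 4 heavy chain genes of the rule that passed the filter, in each of the 12 libraries, by PFOS dose in µM; points are libraries and bars are mean ± SD over 4 libraries, on linear axes that start at 0. Dnah6 separates at every dose with means of 0.890, 2.89 and 5.41 CPM, Dync1h1 separates at 6 µM from 0 µM, and Dnah2 and Dync2h1 overlap at all doses.

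Among the outer and inner arm chains other than Dnah6, Dnah2 was the only gene of the rule that passed the filter, and it did not change by the test. Dnah2, a chain of the inner arm with a pair of heads, measured 0.735, 0.585, 0.475 and 0.847 CPM at 0 µM, 0.582, 0.401, 0.719 and 0.244 CPM at 2 µM and 0.692, 1.06, 0.139 and 0.356 CPM at 6 µM. The libraries of the 3 doses overlap, and the 6 µM libraries spread the widest. Its log2 fold change was -0.22 for 6 against 0 µM (95% interval -1.47 to 1.02, adjusted p = 0.866 by the quasi-likelihood test of edgeR, with p adjusted over all tested genes) and -0.44 for 2 against 0 µM (adjusted p = 0.786 by the same edgeR test). At 6 to 47 reads per library, a 2-fold change in either direction lay inside the interval at 6 µM.

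The other 6 genes of the rule had too few reads for the filter, and each is given by its read sum over the 4 libraries of a dose. For the inner arm chains, Dnah1 had 19 reads at 0 µM, 19 at 2 µM and 14 at 6 µM. Dnah7b had 18 at 0 µM, 8 at 2 µM and 13 at 6 µM, and Dnah10 had 8 at 0 µM, 25 at 2 µM and 19 at 6 µM. These 3 genes thus had fewer reads in all 12 libraries together, between 39 and 52, than Dnah6 had in any single library with PFOS. For the outer arm chains, Dnah5, whose human counterpart is often mutated in primary ciliary dyskinesia, had 14 reads at 0 µM, 23 at 2 µM and 7 at 6 µM. Dnah11 had 56 at 0 µM, 11 at 2 µM and 17 at 6 µM. Dnah8, a chain of the sperm outer arm, had 29 at 0 µM, 10 at 2 µM and 0 at 6 µM. In a fit with no filter, on 29499 genes, the edgeR adjusted p of Dnah1, Dnah5, Dnah7b, Dnah10 and Dnah11 was 0.292 or higher in every comparison.

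Dnah8 was at 0 in all 4 libraries at 6 µM, where 3 reads over the dose would correspond to 0.0176 CPM, against 0.194 CPM pooled over the 0 µM libraries. It was therefore at least 11-fold lower at 6 than at 0 µM, with the floor of 3 reads taken over the 4 libraries at 6 µM. In the fit with no filter its edgeR adjusted p was 0.0209. The 0 µM reads were uneven, with 18 of the 29 in replicate 1. Without that library, an alternative added after seeing the data, the pooled 0 µM level was 0.0941 CPM, or 5.34-fold above the floor. The edgeR adjusted p was then 0.201, so the call rests on that library.

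Near-identical copies limit the Dnah7 genes, since 48.4% of the 50-base stretches of Dnah7b, 48.5% of those of Dnah7c and 40.3% of those of Dnah7a occur in another gene. Their counts are uncertain for that reason. Dnah7a had 0 reads in all 12 libraries and Dnah7c had 83, with 40 at 0 µM, 7 at 2 µM and 36 at 6 µM. Of the remaining axonemal chains that failed the filter, Dnah3 had 2 reads in all. Dnah9 had 29, with 7 at 0 µM, 17 at 2 µM and 5 at 6 µM. Dnah12, a single-headed inner arm chain like Dnah6, had 10, with 0 at 0 µM, 4 at 2 µM and 6 at 6 µM. In the fit with no filter, the edgeR adjusted p of Dnah7c, Dnah9 and Dnah12 was 0.31 or higher in every comparison. The heavy chain genes outside the rule that passed were Dnah14, Dnah17 and Dnhd1. Dnah17, an outer arm chain of sperm, averaged 2.135 ± 0.679 CPM at 0 µM, 1.16 ± 0.206 CPM at 2 µM and 1.44 ± 0.564 CPM at 6 µM (SD, n = 4). Its log2 fold change was -0.88 for 2 against 0 µM (95% interval -1.59 to -0.17, adjusted p = 0.169, edgeR). That interval, which is not adjusted for the number of genes, excluded 0. For 6 against 0 µM the log2 fold change of Dnah17 was -0.57 (95% interval -1.27 to 0.13, adjusted p = 0.304, edgeR). Dnah14 averaged 0.667 CPM at 0 µM, 0.282 CPM at 2 µM and 0.504 CPM at 6 µM. Its log2 fold change for 2 against 0 µM was -1.24 (95% interval -2.64 to 0.16, adjusted p = 0.377, edgeR). Dnhd1 averaged 0.235 CPM at 0 µM, 0.207 CPM at 2 µM and 0.220 CPM at 6 µM. For 6 against 0 µM the edgeR adjusted p was 0.753 for Dnah14 and 0.962 for Dnhd1.

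Scaled by gene length and library size (RPKM), the order of levels changed around Dnah6. Dync1h1 averaged 37.2 RPKM at 0 µM and Dync2h1 averaged 1.91 RPKM, far above every axonemal chain. Next at 0 µM came Dnah17 with 0.0727 to 0.165 RPKM, Dnah6 with 0.0578 to 0.0785 RPKM, Dnah2 with 0.0317 to 0.0566 RPKM and Dnah14 with 0.0241 to 0.0600 RPKM. Dnah17 and Dnah6 overlapped at 0 µM, as did Dnah6 and Dnah14, and Dnah2 and Dnah14, whereas Dnah2 lay below Dnah6. At 2 µM, Dnah6, with 0.174 to 0.2675 RPKM, lay above Dnah17, with 0.0563 to 0.0832 RPKM. At 6 µM, the lowest Dnah6 library, at 0.345 RPKM, lay above the highest Dnah17 library, at 0.141 RPKM. Dnah6 averaged 0.0672 ± 0.0104 RPKM at 0 µM, 0.218 ± 0.0399 RPKM at 2 µM and 0.408 ± 0.0515 RPKM at 6 µM (SD, n = 4).

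**Figure D2:**
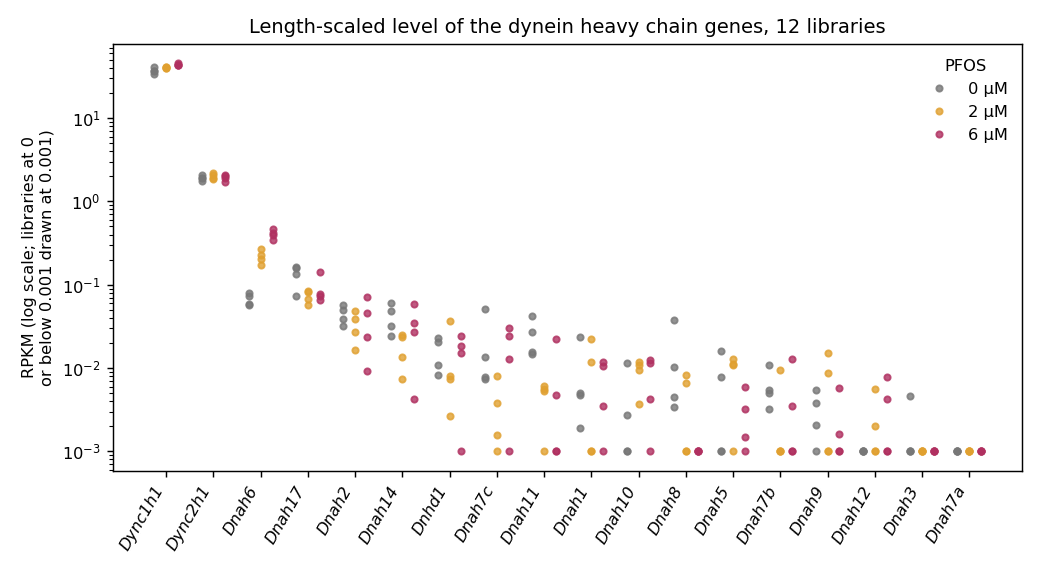
Level in RPKM, on a log axis, of the heavy chain genes in each library, coloured by PFOS dose, with libraries at 0 or under the axis floor drawn at the floor. Dync1h1 and Dync2h1 lie above all axonemal chains, and all Dnah6 libraries lie above all Dnah17 libraries at 2 and at 6 µM.

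Dnah6 took a larger share of the axonemal heavy chain reads with PFOS. The reads of Dnah6 enter this share, so it is not an observation separate from its level. Its share of the reads of all 15 axonemal heavy chain genes was 12.4% to 19.7% at 0 µM, 42.1% to 63.5% at 2 µM and 52.8% to 73.7% at 6 µM. The shares at 2 and at 6 µM all lay above those at 0 µM and overlapped each other. The other 14 genes summed to 3.19 to 5.42 CPM at 0 µM, 2.04 to 3.16 CPM at 2 µM and 2.22 to 4.74 CPM at 6 µM, with means of 4.73 ± 1.05 CPM, 2.64 ± 0.477 CPM and 3.203 ± 1.10 CPM (SD, n = 4), in the same order. Every 2 µM library thus had a lower sum than every 0 µM library, with a narrow gap only between the nearest ones. The 6 µM libraries overlapped both other doses.

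The cytoplasmic chains stand at much higher levels. Dync1h1, the heavy chain of dynein 1, rose at 6 µM by a small factor. Dync1h1 measured 578, 532, 568.5 and 648 CPM in the 0 µM libraries, 633, 618, 649.5 and 648 CPM in the 2 µM libraries and 687, 671, 682 and 710 CPM in the 6 µM libraries. Every 6 µM library lay above every 0 and 2 µM library, while the 2 µM libraries overlapped those at 0 µM, where replicate 4 stood highest. The log2 fold change for 6 against 0 µM was 0.24 (SE 0.0458, 95% interval 0.14 to 0.35), or 1.18-fold, with an adjusted p of 0.00165 in edgeR's quasi-likelihood test. Without the 3 libraries farthest from their dose it was 0.27 with an edgeR adjusted p of 0.0135. For 2 against 0 µM it was 0.13 (adjusted p = 0.156, edgeR), and without 0 µM replicate 4 it was 0.19 (adjusted p = 0.0140, edgeR), which makes this comparison depend on that library. For 6 against 2 µM it was 0.11 (adjusted p = 0.310, edgeR).

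Dync2h1, the retrograde motor of intraflagellar transport, did not change by the test. It measured 33.6, 31.3, 29.0 and 31.0 CPM at 0 µM, 29.98, 34.2, 36.2 and 31.6 CPM at 2 µM and 31.6, 33.3, 27.7 and 34.15 CPM at 6 µM. The doses overlap throughout. With 951 to 1707 reads per library its interval was narrow, as the log2 fold change was 0.02 for 6 against 0 µM (95% interval -0.15 to 0.20, adjusted p = 0.907, edgeR). It was 0.08 for 2 against 0 µM (adjusted p = 0.701, edgeR) and -0.06 for 6 against 2 µM (95% interval -0.23 to 0.12).

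Counted over the family, Dync1h1 was thus the only one of the 6 tested heavy chains other than Dnah6 that was called at 6 against 0 µM, higher and at 1.18-fold. Over all tested genes, 8.24% were called in that comparison, 4.58% higher and 3.66% lower. The median log2 fold change of the 6 chains was -0.165, and that of all tested genes was -0.016. For 2 against 0 µM, edgeR called 0 of the 6, against 2.35% of all tested genes (1.61% higher and 0.742% lower), with 1 higher and 1 lower at an unadjusted p under 0.05, while DESeq2 called 0. For 6 against 2 µM, edgeR also called 0 of the 6, against 1.11% of all tested genes (0.561% higher and 0.549% lower). In that comparison 1 was higher at an unadjusted p under 0.05, and DESeq2 called 0. Over all 16038 tested genes, 2265 had an unadjusted p under 0.05 for 2 against 0 µM and 2007 for 6 against 2 µM. The 95% intervals of the 6 chains at 6 against 0 µM had upper ends from 0.135 for Dnah17 to 1.80 for Dnhd1. The difference between Dnah6 and the others was not tested, because Dnah6 was chosen for its change.

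**Figure D3:**
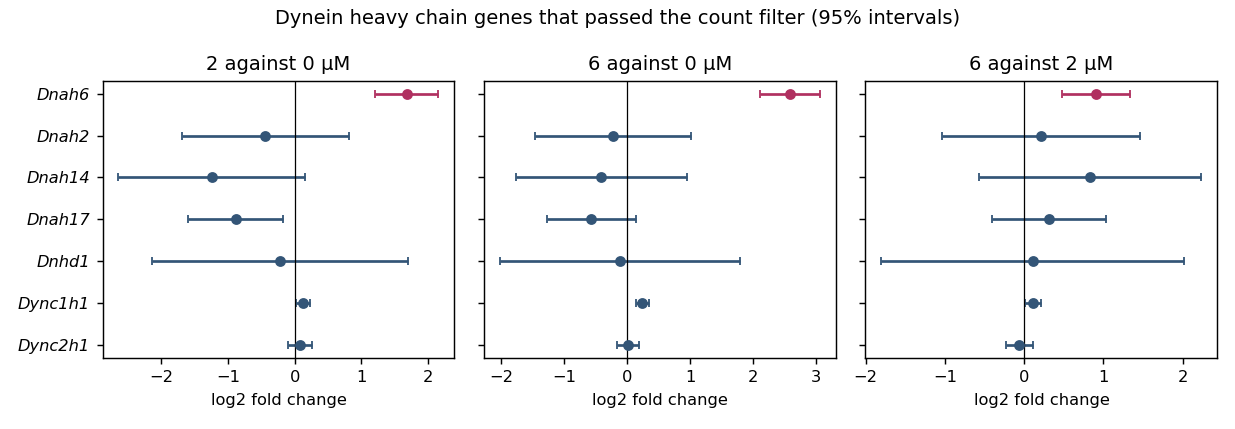
Log2 fold change with its 95% interval for the 7 heavy chains that passed the filter, for the 3 comparisons of PFOS doses. At 6 against 0 µM Dnah6 lies at 2.59 and Dync1h1 at 0.24, and the intervals of the other chains include 0. The Dnah6 intervals take no account of its choice by its change and serve as no test.

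Across 9 lists of dynein and cilium genes other than heavy chains, with 108 tested genes between them, edgeR called 1 higher and 4 lower at 6 against 0 µM, where 4.58% of all tested genes were called higher and 3.66% lower. At an unadjusted p under 0.05, 6 of the 108 were higher and 18 lower, and DESeq2 called 1 higher and 6 lower. Over all 16038 tested genes, 3458 had an unadjusted p under 0.05, and DESeq2 called 1051 higher and 777 lower. The same background applies to the single lists below. For 2 against 0 µM edgeR called 0 of the 108, beside 2.35% of all tested genes. At an unadjusted p under 0.05, 4 were higher and 8 lower, beside 2265 of all 16038 in either direction. DESeq2 called 2 higher and 1 lower, beside 524 and 227 over all tested genes. For 6 against 2 µM edgeR called 0, beside 1.11% of all tested genes. At an unadjusted p under 0.05, 3 were higher and 10 lower, beside 2007 of all 16038 in either direction. DESeq2 called 1 lower, beside 216 lower over all tested genes.

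The first lists are the smaller parts of the axonemal arms. Of the 11 intermediate and light chain genes of axonemal dynein, 5 were tested, and edgeR called 0 at 6 against 0 µM, with 1 lower at an unadjusted p under 0.05, while DESeq2 called 0. Dnal4, the light chain gene with the highest level, measured 50.2 CPM at 6 µM and 48.7 CPM at 0 µM. Of the 9 genes that dock the arms on the axoneme, 7 were tested and edgeR called 0, with 1 higher at an unadjusted p under 0.05 and 0 called by DESeq2. Ccdc114, of the outer arm docking complex, measured 2.70 CPM at 6 µM and 3.52 CPM at 0 µM (log2 fold change -0.39, adjusted p = 0.295, edgeR). The gene that passed at the unadjusted p was Ccdc40, which acts in the ruler that spaces the inner arms, at 0.531 CPM at 6 µM and 0.160 CPM at 0 µM (log2 fold change 1.71, adjusted p = 0.141, edgeR); it is named after its values were seen. The low intermediate chain gene Dnaic2, named on the same ground, measured 0.234 CPM at 6 µM and 0.0675 CPM at 0 µM (log2 fold change 1.83, adjusted p = 0.445, edgeR).

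Of the 16 factors that assemble axonemal dyneins in the cytoplasm, 12 were tested and 1 was called higher at 6 against 0 µM, beside 4.58% of all tested genes. This was Ruvbl2, an ATPase of many complexes beyond dynein assembly, at 146.5 to 151 CPM at 6 µM and 119 to 130 CPM at 0 µM, with no overlap. Its log2 fold change was 0.26 with an edgeR adjusted p of 0.00167. The median log2 fold change of the 12 was 0.064, and that of all tested genes was -0.016.

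For cytoplasmic dynein 1, 12 of 12 smaller subunits were tested and 1 was called lower at 6 against 0 µM, beside 3.66% of all tested genes, with a median log2 fold change of -0.029. The called gene was Dynlt1b, a light chain gene, at 14.6 CPM at 6 µM and 18.6 CPM at 0 µM (log2 fold change -0.35, adjusted p = 0.0365, edgeR). The call was lost in 7 alternatives, 6 of them fits without a single library, with an edgeR adjusted p up to 0.254. Dynlt1b has close copies in the mouse genome, so its counts are uncertain. Dync1i2, the most abundant subunit gene, measured 139 CPM at 6 µM and 132 CPM at 0 µM (adjusted p = 0.275, edgeR).

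All 12 dynactin genes, which build the activator of dynein 1, were tested and edgeR called 0, with 1 higher at an unadjusted p under 0.05 and 0 called by DESeq2. Dctn1 measured 244.5 CPM at 6 µM and 245.6 CPM at 0 µM. Of the 19 regulators and cargo adaptors, 18 were tested and edgeR called 0, with 1 higher and 4 lower at an unadjusted p under 0.05, while DESeq2 called 2 lower. Pafah1b1, which encodes the dynein regulator LIS1, measured 314 CPM at 6 µM and 312.5 CPM at 0 µM (log2 fold change 0.01, adjusted p = 0.940, edgeR).

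For dynein 2, all 4 smaller subunits were tested and edgeR called 0, with 1 lower at an unadjusted p under 0.05, while DESeq2 called 0. Tctex1d2, a light chain gene of that motor, measured 20.1 CPM at 6 µM and 23.4 CPM at 0 µM (log2 fold change -0.22, adjusted p = 0.0853, edgeR). All 26 genes of intraflagellar transport were tested, and 3 fell at 6 against 0 µM while 0 rose, against 3.66% of all tested genes called lower. They were Ift20, a train subunit that also works at the Golgi, at 45.0 to 50.1 CPM at 6 µM and 54.9 to 60.2 CPM at 0 µM, Ift80, and Kifap3, the accessory chain of the kinesin that drives trains outward. Ift20 had a log2 fold change of -0.29 (adjusted p = 0.00354, edgeR), and its call was lost without the 3 libraries farthest from their dose (adjusted p = 0.107, edgeR). Ift80, a train subunit, fell by 0.28 on the log2 scale to 71.6 CPM at 6 µM, against 87.2 CPM at 0 µM (adjusted p = 0.00322, edgeR). Kifap3 measured 131 CPM at 6 µM and 147 CPM at 0 µM (log2 fold change -0.17, adjusted p = 0.0191, edgeR). The Kifap3 call was lost in the fits without 0 µM replicate 3 (adjusted p = 0.0683, edgeR), 6 µM replicate 2 (0.0628), 6 µM replicate 3 (0.0720) and the 3 libraries farthest from their dose (0.344).

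**Figure D4:**
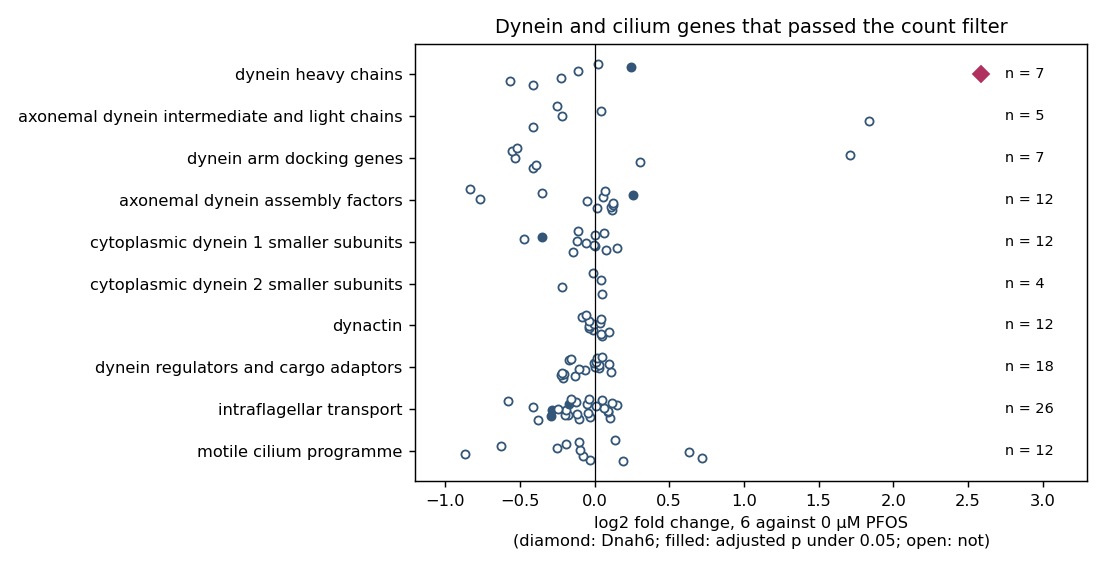
Log2 fold change at 6 against 0 µM of the tested genes of each dynein and cilium list, 1 point per gene, filled where edgeR called it and open where it did not, with Dnah6 as a diamond. Dnah6 lies at 2.59, to the right of every other point, and the high open points are Dnaic2 at 1.83 and Ccdc40 at 1.71.

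Markers of motile ciliated cells did not change by the test. The motile cilium list holds 35 genes, of which 6 (Gmnc, Tekt4, Pifo, Sntn, Dynlrb2 and Zbbx) were at 0 in all 12 libraries. Foxj1, the master regulator of motile ciliogenesis, had 4 reads in all 12 libraries together, Mcidas had 6 and Hydin had 15. The summed level of the list was 120 to 131 CPM at 0 µM, 121 to 126 CPM at 2 µM and 113 to 121 CPM at 6 µM. The 6 µM libraries lay just below those at 2 µM and overlapped those at 0 µM. Of the 12 genes tested, edgeR called 0 at 6 against 0 µM, with 1 lower at an unadjusted p under 0.05, while DESeq2 called 0. Cfap43, which carried most of that sum, measured 67.8 CPM at 6 µM and 71.4 CPM at 0 µM (adjusted p = 0.493, edgeR). Rfx2 and Rfx3, which encode X-box binding factors of ciliary genes, measured 6.02 and 14.6 CPM at 6 µM, against 6.43 and 17.3 CPM at 0 µM (adjusted p = 0.787 and 0.268, edgeR). The 12 sperm and germ cell markers summed to 0.130 to 0.400 CPM at 0 µM, 0.0506 to 0.719 CPM at 2 µM and 0.226 to 0.369 CPM at 6 µM, with 6 of 12 at 0 in every library and 0 passing the filter.

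Some members of other marker lists were called. Of 14 myoblast markers, 7 fell and 1 rose at 6 against 0 µM, where 3.66% of all tested genes were called lower and 4.58% higher. Tnnt1, a slow troponin of differentiating muscle, measured 5.67 to 7.19 CPM at 6 µM and 11.01 to 14.75 CPM at 0 µM (log2 fold change -0.96, adjusted p = 6.01e-05, edgeR). Myog, the factor that starts myoblast differentiation, measured 4.06 CPM at 6 µM and 7.15 CPM at 0 µM (adjusted p = 0.00172, edgeR). The 10 adipocyte markers summed to 34.3 to 38.7 CPM at 0 µM, 42.6 to 49.7 CPM at 2 µM and 51.9 to 55.6 CPM at 6 µM, with no overlap between doses, as for Dnah6. All 4 that were tested rose at 6 against 0 µM, with 4.58% of all tested genes called higher, among them Pparg, the fat cell regulator, at 20.2 to 23.1 CPM at 6 µM and 14.5 to 17.5 CPM at 0 µM (adjusted p = 0.00336, edgeR), and 2 of the 10 were at 0 in every library. The 7 fibroblast markers summed to 539 to 559 CPM at 0 µM, 588 to 639 CPM at 2 µM and 595 to 614 CPM at 6 µM, and the 9 immune and endothelial markers to 5.96 to 7.44 CPM, 5.12 to 7.95 CPM and 5.78 to 8.16 CPM in the same order. Most of the fibroblast sum was Cd34, a surface protein of progenitor cells and the 1 called gene of the list. It averaged 580 CPM at 6 µM and 524 CPM at 0 µM (adjusted p = 0.0102, edgeR), and the call was lost without the 3 libraries farthest from their dose (adjusted p = 0.0746, edgeR). The 6 tested fibroblast genes had a median log2 fold change of -0.34 at 6 against 0 µM, opposite to the sum. The immune and endothelial sums overlapped at all doses. The part of these markers in the Dnah6 values was not tested.

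Of the 5 tested protein-coding genes nearest to Dnah6 on its chromosome, 1 was called at 6 against 0 µM, higher, with 4.58% of all tested genes called higher. Suclg1, the nearest protein-coding gene upstream, which encodes a subunit of succinyl-CoA ligase, starts 26.7 kb from the Dnah6 start. It measured 107 to 122 CPM at 6 µM and 101 to 109.5 CPM at 0 µM, which overlap (log2 fold change 0.11, adjusted p = 0.177, edgeR). The 2 µM libraries, at 100.8 to 103.5 CPM, lay below those at 6 µM. For 6 against 2 µM edgeR did not call Suclg1 (log2 fold change 0.155, adjusted p = 0.129), whereas DESeq2 did (adjusted p = 0.0408). On the other side, Tmsb10, an actin-binding thymosin, rose at 6 against 0 µM, at 721 to 777 CPM at 6 µM and 436 to 693 CPM at 0 µM (log2 fold change 0.34, adjusted p = 0.0123, edgeR), with 0 µM replicate 1 lowest. Kcmf1, Tcf7l1 and Tgoln1, farther on that side, were not called (adjusted p = 0.257, 0.931 and 0.673, edgeR). Gm40377, a gene model of unknown function, which starts 1.4 kb upstream of the Dnah6 start on the opposite strand, had 3 reads over the 0 µM libraries, 3 over the 2 µM libraries and 30 over the 6 µM libraries. Replicate 1 held 10 and replicate 4 held 18 of those 30 reads, and the gene failed the filter. No source used here states whether reads were counted by strand.

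The genes whose pattern was most like that of Dnah6 had means ordered by dose. By Pearson's r of log2 CPM over the 12 libraries, the tested genes most like Dnah6 were Angptl4 (0.982), Lonp1 (0.978), Rab11b (0.971), Slc16a1 (0.970) and Aldh9a1 (0.969), then Cpt1a, Btg1, Atp2a3, Mybbp1a and Rad23b (0.961 to 0.958). The 12 libraries share 3 doses, so r mostly ranks agreement of the dose means; with the dose means removed, r of these 10 genes with Dnah6 ran from -0.222 to 0.608. Angptl4, a secreted inhibitor of lipoprotein lipase and a known target of PPAR receptors, averaged 9.42 CPM at 0 µM, 61.7 CPM at 2 µM and 201.6 CPM at 6 µM. Cpt1a, which admits long-chain fatty acids to mitochondria, averaged 86.0 CPM at 0 µM, 124 CPM at 2 µM and 169 CPM at 6 µM, or 1.97-fold for 6 against 0 µM. Lonp1, a mitochondrial protease, averaged 506 CPM at 0 µM, 612 CPM at 2 µM and 661.5 CPM at 6 µM, or 1.31-fold. Dnah6 at 6.01-fold thus lay between Angptl4 at 21.5-fold and the other 9, of which Cpt1a had the largest fold. Among the heavy chains, Dync1h1 had an r of 0.786 with Dnah6 and ranked 423rd of 16037 other genes. The r of Dync2h1 was 0.041, and those of Dnhd1, Dnah14, Dnah2 and Dnah17 were -0.195, -0.268, -0.421 and -0.507.

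**Figure D5:**
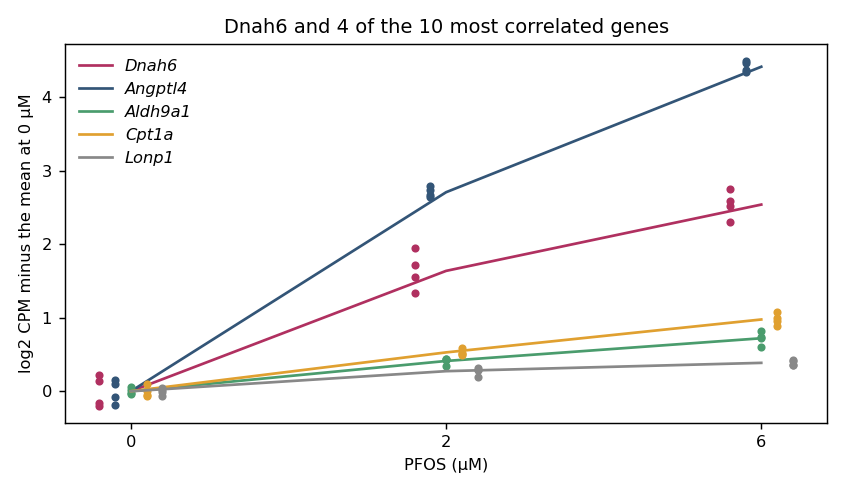
Log2 level relative to the mean at 0 µM, in each of the 12 libraries, for Dnah6 and 4 of the 10 genes most like it, by PFOS dose in µM; points are libraries and lines join the dose means. Angptl4 lies highest at 6 µM, at 21.5-fold, then Dnah6 at 6.01-fold, and Cpt1a, Aldh9a1 and Lonp1 lie lower, at 1.97-, 1.65- and 1.31-fold.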

How the data were processed

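RNA was sequenced from 12 libraries, 4 at each of 3 PFOS doses, grouped by their titles. The authors deposited raw integer counts for each gene. HISAT2 aligned the reads and GRCm39 is the build, per the submitters' processing notes; which program counted them, and on which strand, is not given in the sources used here. Deposited coordinates equal those of GENCODE M21, which is on GRCm38, for 17 of the 18 heavy chains (Dnah8 differs in its end), so coordinates are named GRCm38.

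Tests used edgeR 4.0.16 under R 4.3.3 (TMM factors, filterByExpr by dose, quasi-likelihood test, 1 model with a mean per dose, 9 residual degrees of freedom). Benjamini-Hochberg adjustment ran over all 16038 tested genes, and a call means an adjusted p under 0.05. CPM used TMM-scaled library sizes and RPKM the gene lengths of the table. An SE is the log2 fold change over the square root of F, and 95% intervals use t with the residual degrees of freedom. Log2 CPM came from edgeR with a prior count of 2. DESeq2 1.42.0, other scalings, filters and fits without single libraries served as alternatives. The steps were tested on simulated data.

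Genes outside the family are named by a rule: called list members with the smallest adjusted p, the most abundant member of each list, the neighbours of Dnah6 and the 10 tested genes most like it. Foxj1, Pafah1b1 and Angptl4 were fixed by name. Genes named beyond the rule include Rfx2, Rfx3, Mcidas, Hydin, Gm20560, Gm40377, Ccdc40 and Dnaic2. The members, the lists and the rule were chosen with earlier results of these data known. Same-numbered libraries did not deviate together, so numbers pair nothing. Promoters come from RefSeq.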

Additional observations from a re-analysis of the deposited data

Results flagged for a closer look

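In a check of each dose for a single library far from the other 3, by the gap to the nearest library over the range against Dixon's 95% critical value for 4 libraries, 14 of 128 gene and dose groups were picked out. Chance alone picks out about 1 in 20 where values are spread normally. That rate does not hold for sparse genes with libraries tied at 0, such as Dnah3 and Dnah7b. An excess over chance can therefore not be read from the count. Among sparse heavy chains, Dnah1 stood at 0.303 CPM in 0 µM replicate 2 with the nearest at 0.0652 CPM, Dnah7b at 0.192 CPM in 2 µM replicate 3 with the others at 0, and Dnah7c at 0.650 CPM in 0 µM replicate 3 with the nearest at 0.173 CPM. Dnah3 had 0.0652 CPM in 0 µM replicate 4 and 0 in the others. Dnah5 was at 0 in 2 µM replicate 2, where the nearest library had 0.168 CPM, and Dnah11 at 0 in 2 µM replicate 3, where the nearest had 0.0758 CPM. Dnah17 reached 2.28 CPM in 6 µM replicate 2 with the nearest at 1.24 CPM, and Dnhd1 0.556 CPM in 2 µM replicate 1 with the nearest at 0.120 CPM.

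Among the other genes, Cd34 was low in 0 µM replicate 4 at 511 CPM, against 526 CPM in the nearest library, and Dync1i2 was low there too, at 128 CPM against 133 CPM. Ift20 was low in 2 µM replicate 4 at 46.6 CPM with the nearest at 52.3 CPM, and Lipe in 2 µM replicate 2 at 4.53 CPM with the nearest at 5.84 CPM. Replicate 3 at 2 µM was high for Plin4, at 15.6 CPM with the nearest at 11.8 CPM, and for Tgoln1, at 94.2 CPM with the nearest at 90.6 CPM. Dnah6, Dync1h1 and Dync2h1 had no library picked out at any dose.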

How the results depend on the processing

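The log2 fold changes of Dnah6 stayed within the spread of the replicates in all alternatives, from 1.57 to 1.78 for 2 against 0 µM, 2.52 to 2.67 for 6 against 0 µM and 0.81 to 1.02 for 6 against 2 µM without single libraries, and at 1.62, 2.43 and 0.81 without the 3 libraries farthest from their dose, a setting added after seeing the data. Without single libraries Dync1h1 ran from 0.092 to 0.188 for 2 against 0 µM, 0.20 to 0.30 for 6 against 0 µM and 0.09 to 0.12 for 6 against 2 µM. For 2 against 0 µM it was called only without 0 µM replicate 4, at 0.188.

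Counts of called genes moved more. For 2 against 0 µM they were 258 higher, 119 lower and 377 in all, against 524, 227 and 751 by DESeq2, 438, 193 and 631 with no count filter, and 72 to 322, 34 to 168 and 106 to 490 without single libraries. For 6 against 0 µM they were 735, 587 and 1322, against 408, 302 and 710 without the 3 libraries and 513 to 789, 398 to 592 and 918 to 1343 without single libraries. Upper-quartile factors gave 598 higher and 662 lower there. For 6 against 2 µM they were 90, 88 and 178, against 229, 216 and 445 by DESeq2, 177, 224 and 401 with no filter, 55 lower without the 3 libraries, and 45 to 138, 33 to 121 and 82 to 259 without single libraries. With the replicate number as a block, 54 were lower, Dnah6 had 1.68, 2.59 and 0.90, and the Dync1h1 call at 6 against 0 µM held (adjusted p = 0.000867, edgeR); the 12 same-numbered pairs had correlations of deviations from -0.028 to 0.037. The cause of these moves was not tested. Of 1808 values of other named genes under an alternative, 1763 stayed on the same side of the threshold, 15 crossed into it and 30 out of it. Direction was not always kept by genes that were not called. Without single libraries, Dctn1 ran from -0.063 to 0.033 and Dnah2 from -0.728 to 0.105 for 6 against 0 µM. Depth limits the chains that failed the filter.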
